A study of Homo sapiens with 22 samples.

Results

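The genes described here are those of the insulin-like growth factor (IGF) axis: the ligand IGF2, its receptors IGF1R and IGF2R, and the binding proteins IGFBP2 to IGFBP7. They were chosen by symbol, and 9 of the 10 listed genes were found among the 35237 genes of the count table. The tenth, H19, was not analysed here. The list was drawn up knowing that IGF2 was among the genes with the most counts in SK-N-AS cells after the first treatment stage. The level of IGF2 in that group is therefore given as a description and is not tested.

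The RNA came from 22 libraries of SK-N-AS and GIMEN, neuroblastoma lines of human origin, both mesenchymal by their labels. Untreated SK-N-AS cells (4 libraries) grew in DMEM with 10% fetal bovine serum. The S1D4 group (4 libraries) received 5 µM PP121 in medium with 1% serum for 4 days. The S2D4 and S2D30 groups (4 libraries each) were S1D4 cells moved to Neurobasal medium with B27 supplement and kept with 5 µM PP121 and 100 nM bufalin for 4 or 30 days. Untreated GIMEN cells (3 libraries) grew in RPMI with 10% serum, and the D30 group (3 libraries) received 2.5 µM PP121 and 10 nM bufalin in RPMI with 1% serum for 30 days. PP121 is an inhibitor of tyrosine kinases and of PI3-kinase and mTOR, and bufalin is a cardiac glycoside that inhibits the sodium-potassium pump. In each treated group the drugs changed together with the serum, and from S1D4 to S2D4 also with the medium, so their parts cannot be told apart. Each line is a single cell line, and the labels do not say whether replicates were separate cultures grown at different times, so p-values measure only the spread between these libraries.

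IGF2 is a secreted growth factor that signals through the receptor tyrosine kinase IGF1R and through the insulin receptor, both of which activate PI3-kinase and AKT by way of the adaptors IRS1 and IRS2. IGF2R, the cation-independent mannose-6-phosphate receptor, takes IGF2 up for degradation in lysosomes and carries no kinase. The IGFBPs hold IGFs outside the cell and are cut by proteases such as PAPPA, which in turn is inhibited by the stanniocalcins. IGF2 is imprinted, is abundant in fetal tissue and has long been known as a growth factor of neuroblastoma cells.

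The 2 binding proteins with the largest opposite changes in SK-N-AS, IGFBP4 and IGFBP5, are shown by the 250 bases before their start site, together with IGFBP3. These are RefSeq sequences of GRCh38.p14, read 5′ to 3′ on the strand of the gene. IGFBP4 lies at chr17:40443200-40443449 (+), IGFBP5 at chr2:216695550-216695799 (-) and IGFBP3 at chr7:45921273-45921522 (-). Capitals mark matches, on either strand, to the GC box GGGCGG or the TATA box TATAAA.
IGFBP4: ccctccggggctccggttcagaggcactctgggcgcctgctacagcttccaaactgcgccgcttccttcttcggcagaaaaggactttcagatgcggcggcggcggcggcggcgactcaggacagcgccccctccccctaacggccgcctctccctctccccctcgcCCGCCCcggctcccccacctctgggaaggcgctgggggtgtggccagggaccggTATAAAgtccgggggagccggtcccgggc
IGFBP5: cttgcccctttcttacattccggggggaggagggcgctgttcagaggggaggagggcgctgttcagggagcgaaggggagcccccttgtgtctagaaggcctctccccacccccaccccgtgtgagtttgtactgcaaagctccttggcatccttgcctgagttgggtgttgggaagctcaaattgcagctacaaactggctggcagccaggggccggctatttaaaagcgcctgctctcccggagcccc
IGFBP3: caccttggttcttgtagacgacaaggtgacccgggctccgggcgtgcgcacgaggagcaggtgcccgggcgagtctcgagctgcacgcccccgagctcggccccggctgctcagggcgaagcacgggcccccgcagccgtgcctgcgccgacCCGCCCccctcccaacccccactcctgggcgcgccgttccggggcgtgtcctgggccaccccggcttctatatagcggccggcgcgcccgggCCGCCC
The IGFBP4 stretch held 1 GC box, first base at position -83, and a TATA box at -29, counting -1 as the base before the start. The IGFBP3 stretch held 2 GC boxes, at -98 and -6. The IGFBP5 stretch held neither motif, and its GC content was 61.2% against 71.6% for IGFBP4 and 76% for IGFBP3. The FOXO motif GTAAACA and the AP-1 motif TGANTCA were also searched and matched none of these 3 stretches. Among 35116 RefSeq promoters cut to the same length, the GC box was in 42.6%, the TATA box in 10.7%, the AP-1 motif in 6.57% and the FOXO motif in 2.98%. A sequence was matched for 6 of the 9 genes. Of the other matched genes, IGFBP6 held a FOXO match at -186 and a GC box at -17, IGF1R held 2 GC boxes and IGF2R held 6. The bases just after the start were also sought in GENCODE v29 transcripts of the same gene. They were found for 3 of the 6 (IGF1R, IGFBP3 and IGFBP6) and not for IGFBP4, IGFBP5 or IGF2R. Positions given for IGFBP4, IGFBP5 and IGF2R therefore rest on the RefSeq start alone.

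Library totals ran from 16456484 to 37506800 counts. Levels are given as CPM (counts scaled to 1 common library total), with TMM factors over all 22 libraries. They compare libraries for 1 gene. Levels of different genes are compared as CPM per kilobase (kb) of exon, except for the ranks of IGF2 among all genes. Those ranks use counts or mean CPM without a length correction, so longer genes stand higher in them. Differences are log2 fold changes with their standard error (SE) from edgeR's quasi-likelihood test, and a gene is called at a Benjamini-Hochberg adjusted p under 0.05 over all genes tested. S2D4 replicate 4 stood apart from the other 3 libraries of its group. Over 9951 genes its log2 CPM correlated with theirs at a mean r of 0.92, and with the S1D4 libraries at 0.84, against 0.81 between those 3 and S1D4. For 7 of the 9 genes its level was nearer the S1D4 mean than the mean of the other 3 libraries, so S2D4 results are given with and without it. The 7 include IGF2, where replicate 4 (16990 CPM) lay above all S1D4 libraries (14040 to 16720 CPM), and IGFBP7, which was near the floor. In S1D4, replicates 1 and 2 differed from replicates 3 and 4, with log2 CPM correlating at 0.992 within each pair and at 0.979 to 0.981 across them. In untreated SK-N-AS the same split was seen in single genes, IGFBP3 and IGFBP2 among them. Over all genes, untreated replicate 4 stood farthest from the others (0.969 to 0.978), while replicates 1 to 3 correlated at 0.985 to 0.99. The log2 ratio of S1D4 to untreated means was taken within replicates 1 and 2 and within 3 and 4. It changed sign for IGF1R (0.18 and -0.24), IGFBP5 (0.17 and -0.53) and IGFBP6 (-0.91 and 0.44). For TH it was 5.63 and 7.79 and for STC1 3.4 and 4.96, while IRS2 had 2.08 and 2.12.

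The cells kept marks of their labels in part. All 10 mesenchymal markers were at 1 CPM or more in each group, but their summed level in untreated SK-N-AS was 1080 to 1710 CPM, against 37900 to 39500 CPM in untreated GIMEN, where FN1 made up most of it. The sum was 1540 to 1800 CPM in S1D4, 2850 to 5170 CPM in S2D4 and 3450 to 4210 CPM in S2D30, and 20700 to 23900 CPM in GIMEN D30. In SK-N-AS most of it was VIM, at a mean of 937 CPM in untreated cells and 2860 CPM in S2D30. FN1 (60.3 to 1.89 CPM) and TWIST1 (108 to 85.2 CPM) were lower in S2D30 than in untreated cells, and the other markers were higher. In SK-N-AS all 10 adrenergic markers were also present, and their sum went from 2160 to 2380 CPM in untreated cells to 321 to 419 CPM in S2D30. Of the leukocyte markers, CD3E was at 0 in all 4 SK-N-AS groups and AIF1 in 3 of them, while PTPRC averaged 177 CPM in untreated SK-N-AS and CD68 averaged 291 CPM in GIMEN D30. Endothelial markers summed to at most 37 CPM and Schwann cell markers to at most 9.36 CPM. The part of these shifts in the results was not tested. In bulk RNA, fewer cells of a type and less RNA per cell cannot be told apart.

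Calls were common among all genes, so counts of called members are given only against that background. IGFBP7 passed the filter on low counts in SK-N-AS through its untreated group alone and is left out of these counts. In S1D4 against untreated, 2 of 7 members were called (IGF2 also left out), 1 higher and 1 lower, and 40.1% of 15810 genes were (17.6% higher and 22.4% lower). In S2D4 all 8 members counted were called, 7 higher and 1 lower, against 63.1% of genes (30.9% higher and 32.2% lower). The counts without replicate 4 were also 7 and 1, where 10540 of 16098 genes were called in either direction. In S2D30 it was 6 of 8, with 4 higher and 2 lower, against 70.3% (33.8% and 36.5%). In GIMEN D30 all 8 were called, 5 higher and 3 lower, against 71.4% of 13517 genes (35.5% and 36%). From S1D4 to S2D4, 6 of 7 were called against 55.1%, and from S2D4 to S2D30 5 of 8 against 51.3%. Without replicate 4 the latter was 7 of 8, where 8644 of 16098 genes were called. The 30-day changes of the lines differed for 6 of 8 members against 49.7% of 16246 genes. The IGFBP6 call in this comparison was lost in 11 of 14 fits that left out a library. The untreated lines differed for 8 of 8 against 73.6% of 15101 genes. Libraries of the groups compared did not overlap for 38.2% of genes in S1D4, 51.2% in S2D4 and 66.4% in S2D30 against untreated cells. The shares were 50.3% from S2D4 to S2D30 and 75.4% in GIMEN. The 3 SK-N-AS comparisons with untreated cells share the same 4 control libraries.

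**Figure D1:**
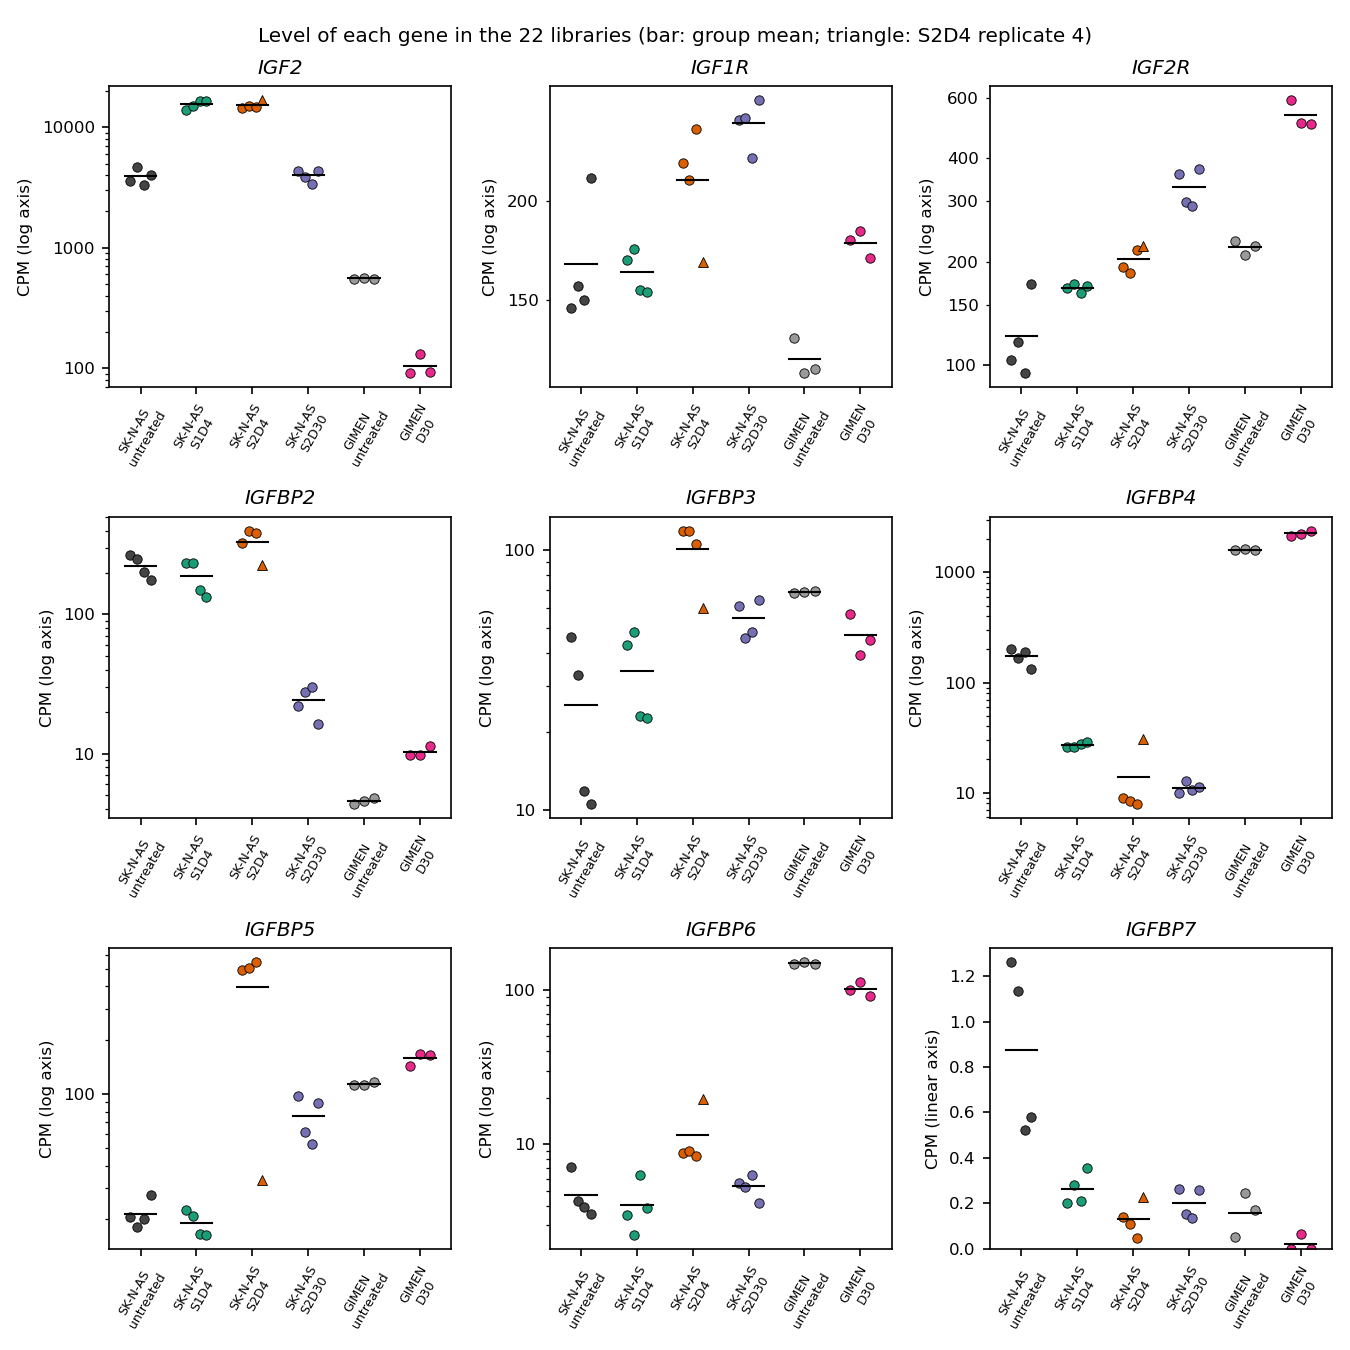
Level of each gene in CPM in the 22 libraries, by group (log axis, except IGFBP7 on a linear axis); points are libraries, the bar is the group mean and the triangle is S2D4 replicate 4. IGF2 stands at 14040 to 16990 CPM in S1D4 and S2D4 and returns to 3372 to 4379 CPM in S2D30, while IGFBP5 is at 493 to 548 CPM in 3 S2D4 libraries and at 33.3 CPM in the triangle.

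IGF2 was the most abundant member of the axis in SK-N-AS, and its level went up and came back. In untreated SK-N-AS it was at 3578, 4710, 3331 and 4036 CPM. In S1D4 it was at 14040, 15080, 16720 and 16450 CPM, 3.91-fold the untreated level and 1.56 to 1.89% of all counts of a library. By counts without a length correction, its rank was 1 or 2 among all genes in each S1D4 library, next to the mitochondrial MT-CO1. No S1D4 library overlapped an untreated one, as was so for 38.2% of all genes tested. This level chose the gene, so the lack of overlap is only a description and no test is given. Just below IGF2 by mean CPM in S1D4 came MT-ND4 at 12290 CPM and VGF, a secreted neuropeptide precursor, at 10680 CPM.

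In S2D4 IGF2 stayed at 14540, 14940, 14890 and 16990 CPM, next below VGF by counts. It was higher than in untreated cells by 1.94 (log2, SE 0.13, adjusted p 2.21e-09), and by 1.88 without replicate 4. The difference from S1D4 was -0.03 (SE 0.13), described without a test. After 30 days, in S2D30, IGF2 was at 4345, 3854, 3372 and 4379 CPM. It had fallen from S2D4 by 1.94 (log2, SE 0.13, adjusted p 5.33e-09), and the groups did not overlap (50.3% of all genes tested had no overlap). Against untreated cells, S2D30 differed by -0.01 (SE 0.13, adjusted p 0.953), a difference whose sign changed with the scaling, and all 4 S2D30 libraries lay within the untreated range.

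GIMEN started lower and went down. Untreated GIMEN had 552, 565 and 553 CPM of IGF2, at ranks 262 to 274 by counts among all genes. Untreated SK-N-AS exceeded it by 2.83 (log2, SE 0.15, adjusted p 1.09e-07). After 30 days of treatment GIMEN had 90.7, 131 and 91.8 CPM, a fall of 2.44 on the log2 scale (SE 0.12, adjusted p 1.32e-08). The groups did not overlap, nor did they for 75.4% of all genes tested. The 30-day changes of the lines differed by 2.42 (log2, SE 0.21, adjusted p 8.05e-08, SK-N-AS minus GIMEN). The lines received different doses and media, so this test compares the protocols as well as the lines.

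The count of IGF2 may hold reads of overlapping genes. In GENCODE v29, 25.4% of the IGF2 exon bases are shared on the same strand with INS-IGF2, a read-through transcript of insulin and IGF2, and AC132217.1, and 5.9% lie opposite IGF2-AS. INS-IGF2 itself averaged 17 CPM in S1D4, when IGF2 was at 14040 CPM or more. The other ligands were near 0: IGF1 had at most 7 counts in any library, and insulin (INS) averaged at most 0.32 CPM, in S1D4.

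Among the genes whose log2 CPM was most like that of IGF2 over the 16 SK-N-AS libraries were RAPGEF5 (r = 0.98), DZANK1 (0.979), ACE (0.977) and LCN1 (0.97), out of 10112 genes with a mean of at least 10 CPM. ACE, the angiotensin-converting enzyme, averaged 10.4 CPM in untreated cells, 85.6 in S1D4, 105 in S2D4 and 15.7 in S2D30. RAPGEF5, an exchange factor for Rap proteins, had the same order with 6.91, 66.6, 69.3 and 11.1 CPM. These correlations describe 4 groups of 4 libraries, which share their treatment steps. The same measure gave HIPK2 (0.96) and ZNF106 (0.958) for IGF1R, RPRD2 (0.982) and SMCR8 (0.978) for IGF2R, SSR2 (0.98) and ELAC2 (0.979) for IGFBP2, STAMBPL1 (0.949) and ANXA2 (0.932) for IGFBP3, and NFIX (0.984) and GFRA2 (0.983) for IGFBP4. For IGFBP5 it gave ZMYND8 (0.975) and NUCB2 (0.956), for IGFBP6 PDCD7 (0.917) and ALG13 (0.91), and for IGFBP7 ID3 (0.937) and OSBPL9 (0.928). IGFBP7 had only 1 to 8 counts in each treated SK-N-AS library, so its values mainly reflect untreated against treated cells.

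The signalling receptor IGF1R was called higher at 30 days in both lines. In untreated SK-N-AS it was at 147, 156, 150 and 214 CPM, with replicate 4 above the rest. S1D4 had 168, 174, 154 and 153 CPM and was not called (-0.06, SE 0.12, adjusted p 0.739). In S2D4 the values were 223, 213, 246 and 167 CPM and in S2D30 253, 254, 227 and 268 CPM. S2D30 was higher than untreated by 0.55 (log2, SE 0.12, adjusted p 0.000713), with no overlap (66.4% of all genes tested had none). The S2D4 difference of 0.32 (SE 0.12, adjusted p 0.0328) was called, but the groups overlapped and the call was lost without any 1 of 6 libraries (untreated or S2D4 replicates 1 to 3, adjusted p up to 0.12). GIMEN went from 134, 121 and 123 CPM to 179, 183 and 169 CPM, higher by 0.46 (SE 0.06, adjusted p 4.16e-05). The 30-day changes of the lines differed by 0.08 (SE 0.15, adjusted p 0.714).

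IGF2R, the receptor that clears IGF2, rose in all 4 treated groups. Untreated SK-N-AS had 103, 117, 94.7 and 172 CPM, with replicate 4 again the highest. S1D4 had 168, 172, 162 and 169 CPM. S2D4 had 192, 185, 215 and 223 CPM, and S2D30 had 361, 298, 289 and 373 CPM. The increase over untreated was 0.44 in S1D4 (log2, SE 0.14, adjusted p 0.0215), 0.71 in S2D4 (SE 0.14, adjusted p 0.000381) and 1.41 in S2D30 (SE 0.15, adjusted p 1.96e-07). The S1D4 call was lost without untreated replicate 1 (adjusted p 0.0566), 2 (0.0507) or 3 (0.0779). From S2D4 to S2D30 it rose by 0.69 (SE 0.14, adjusted p 0.000661). In GIMEN it rose from 229, 209 and 223 CPM to 591, 505 and 501 CPM, by 1.25 (SE 0.08, adjusted p 5.88e-08).

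Per kb of exon, untreated SK-N-AS libraries had an IGF1R to IGF2R ratio of 1.59 to 2.02, S1D4 libraries 1.16 to 1.29 and S2D30 libraries 0.897 to 1.09. In GIMEN it was 0.707 to 0.75 before and 0.387 to 0.465 after treatment. In both lines the treated libraries at 30 days lay below all untreated ones. S2D4 had 1.46 to 1.48 in 3 libraries and 0.962 in replicate 4.

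The insulin receptor genes parted ways. INSR, which also binds IGF2 in its short splice form, rose in SK-N-AS by 0.30 (log2, SE 0.10, adjusted p 0.026) in S1D4, 0.49 (SE 0.10, adjusted p 0.000406) in S2D4 and 1.15 (SE 0.10, adjusted p 2.69e-08) in S2D30. Its untreated libraries had 21.1 to 28.8 CPM and its S2D30 libraries 47.8 to 57.1 CPM. The S1D4 call was lost when untreated replicate 1, 2 or 3 or S1D4 replicate 3 or 4 was left out. INSRR, an orphan receptor of the same family that senses alkaline pH, fell in S1D4 (-2.54, SE 0.26, adjusted p 1.96e-06) and S2D4 (-6.92, SE 0.36, adjusted p 1.08e-10). Its untreated libraries held 34.6 to 64.1 CPM, those of S1D4 6.26 to 11.1 CPM and those of S2D4 0.19 to 0.78 CPM. GIMEN had INSR under 1 CPM in all 6 libraries and INSRR at 0.

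**Figure D2:**
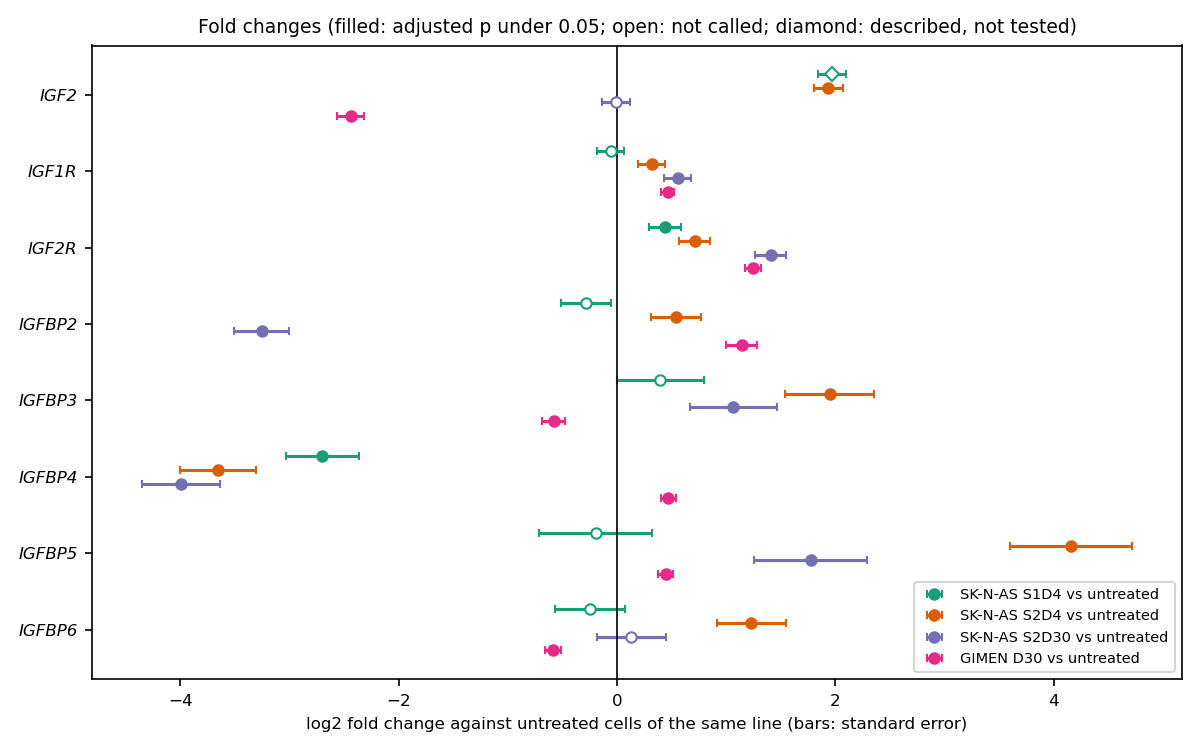
Log2 fold change against untreated cells of the same line for each gene except IGFBP7 in S1D4, S2D4, S2D30 and GIMEN D30, with standard errors (filled points: adjusted p under 0.05; open points: not called; open diamond: IGF2 in S1D4, not tested). IGFBP4 is at -2.70 to -4.00 in SK-N-AS and at 0.47 in GIMEN, and IGF2 is at -2.44 in GIMEN.

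The binding proteins changed in different directions, gene by gene and line by line. IGFBP4, an inhibitory binding protein and the classical substrate of PAPPA, fell early in SK-N-AS and stayed low. Untreated libraries had 204, 166, 188 and 132 CPM. S1D4 had 25.8, 26, 27.9 and 28.7 CPM, a fall (log2 fold change -2.70, SE 0.33, adjusted p 1.06e-05). S2D4 had 8.85, 8.3, 7.86 and 30.5 CPM (-3.65, SE 0.35, adjusted p 1.37e-07), and S2D30 had 9.95, 12.7, 10.6 and 11.2 CPM (-4.00, SE 0.36, adjusted p 3.35e-08). No treated library reached the untreated range. Without S2D4 replicate 4, which sat at the S1D4 level, the S2D4 change was -4.41. The step from S2D4 to S2D30 depended on that library: it was -0.34 (adjusted p 0.412) with it and 0.41 (adjusted p 0.024) without it.

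In GIMEN, IGFBP4 was at 1585, 1618 and 1606 CPM before treatment and at 2160, 2230 and 2395 CPM after it. That was a rise of 0.47 (log2, SE 0.07, adjusted p 8.61e-05), the opposite direction to SK-N-AS. The 30-day changes differed by -4.49 (SE 0.20, adjusted p 3.34e-11). Untreated SK-N-AS was lower than untreated GIMEN (log2 difference -3.20, SE 0.14, adjusted p 4.52e-08).

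IGFBP5, which binds to extracellular matrix and is often seen in differentiating and senescent cells, rose in the second stage. It was at 20.7, 18.1, 20 and 27.5 CPM in untreated SK-N-AS and at 22.6, 21, 16.6 and 16.4 CPM in S1D4, a difference that was not called (-0.20, SE 0.51, adjusted p 0.795). In S2D4 it was at 493, 503, 548 and 33.3 CPM. The rise over untreated was 4.16 (log2, SE 0.56, adjusted p 7.21e-06), and 4.54 (adjusted p 7.51e-12) without replicate 4, which alone stayed near the S1D4 range. S2D30 had 98.1, 61.9, 52.9 and 89.6 CPM, still above untreated by 1.77 (SE 0.52, adjusted p 0.0057) and below S2D4 (log2 fold change -2.38, SE 0.52, adjusted p 0.00105). In GIMEN it went from 113, 113 and 117 CPM to 143, 168 and 165 CPM, a rise of 0.45 (SE 0.07, adjusted p 0.00016). The lines' 30-day changes differed by 1.31 (SE 0.25, adjusted p 0.00034), but in 1 model of all 22 libraries this was not called (adjusted p 0.117).

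IGFBP2, the main binding protein of fetal serum and brain, fell at the 30-day stage in SK-N-AS. Untreated libraries had 268, 249, 202 and 178 CPM and S1D4 libraries 233, 235, 150 and 133 CPM (-0.29, SE 0.23, adjusted p 0.346). S2D4 had 327, 400, 385 and 225 CPM, a difference of 0.54 (SE 0.23, adjusted p 0.0489) whose call was lost without any 1 of 6 libraries (untreated replicates 2 to 4 or S2D4 replicates 1 to 3, adjusted p up to 0.129). S2D30 had 22.1, 27.8, 30.3 and 16.2 CPM, lower than untreated (log2 fold change -3.26, SE 0.25, adjusted p 5.73e-09) and than S2D4 (-3.80, SE 0.26, adjusted p 6.07e-09). In GIMEN the gene was at 4.33 to 4.80 CPM and rose to 9.75 to 11.3 CPM, by 1.14 (SE 0.14, adjusted p 2.21e-05). The 30-day changes had opposite signs, and their difference was -4.42 (SE 0.29, adjusted p 2.61e-09).

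IGFBP3, the main carrier of IGFs in adult serum, split the untreated SK-N-AS libraries into 46.1 and 32.9 CPM in replicates 1 and 2 and 11.8 and 10.5 CPM in replicates 3 and 4. S1D4 showed the same split, with 43 and 48.5 CPM against 22.9 and 22.5 CPM. The S1D4 difference was not called (0.40, SE 0.40, adjusted p 0.463), and the log2 ratio of means was 0.21 within replicates 1 and 2 and 1.02 within replicates 3 and 4. With a term for that split it was called (0.57, adjusted p 0.0448). S2D4 had 119, 119, 106 and 60.1 CPM, all above the untreated range, with a rise of 1.95 (SE 0.41, adjusted p 0.000539). S2D30 had 60.7, 45.8, 48.6 and 64.3 CPM, higher than untreated by 1.07 (SE 0.40, adjusted p 0.0253), a call lost without untreated replicate 3 (adjusted p 0.0786) or 4 (0.0675) or S2D30 replicate 1 (0.052) or 4 (0.0584). GIMEN libraries held 68.3, 69.3 and 69.9 CPM before and 56.7, 39.5 and 45.2 CPM after treatment, a fall (-0.58, SE 0.11, adjusted p 0.000435), and the lines' changes differed by 1.62 (SE 0.52, adjusted p 0.0153).

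IGFBP6, which binds IGF2 with preference over IGF1, was mostly a GIMEN transcript. It was at 146, 152 and 148 CPM in untreated GIMEN and at 99, 113 and 90.7 CPM after treatment, a fall of 0.59 on the log2 scale (SE 0.08, adjusted p 2.91e-05). In SK-N-AS it was at 3.57 to 7.12 CPM untreated, 2.59 to 6.33 in S1D4, 8.42 to 19.5 in S2D4 and 4.17 to 6.39 in S2D30. Only the S2D4 group was called against untreated cells (1.23, SE 0.31, adjusted p 0.00266), and without replicate 4, the highest library, the value was 0.83 (adjusted p 0.0113). IGFBP7, a low-affinity relative, was at the edge of detection, with 11 to 51 counts in untreated SK-N-AS, 1 to 8 in treated SK-N-AS and 0 to 5 in GIMEN. No test of IGFBP7 is given, because only the untreated group carried it past the filter.

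Set side by side per kb of exon, the binding proteins changed their make-up. In untreated SK-N-AS, IGFBP4 gave 53.4 to 62.5% of the summed IGFBP2 to IGFBP7 level and IGFBP2 gave 31 to 36.9%. In S1D4 IGFBP2 led with 54.2 to 64.2%. In S2D4 the share of IGFBP5 averaged 32.4% ± 18 (SD, n = 4), ranging from 5.5% in replicate 4 to 42.8%. In S2D30 IGFBP3 held 28.5 to 35.4% and IGFBP5 23.6 to 36.3%. GIMEN was IGFBP4 throughout, with 83.4 to 83.6% before and 89.4 to 91.2% after treatment.

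IGF2 exceeded the summed binding proteins in all 16 SK-N-AS libraries and in none of the 6 GIMEN libraries. The ratio of IGF2 to their sum, per kb, ran from 2.77 to 4.92 before treatment, while S1D4 libraries had 23.9 to 41.6. In S2D4 it was 9.74 to 10.4 in 3 libraries and 23.5 in replicate 4. S2D30 had 12.6 to 14.4, above all untreated libraries although IGF2 itself was not called against them. The summed binding proteins were at 107 to 168 CPM per kb in untreated and 34.8 to 42 CPM per kb in S2D30. In GIMEN the ratio was 0.0822 to 0.0833 before and 0.01 to 0.0151 after treatment. These ratios compare transcripts, not proteins.

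**Figure D3:**
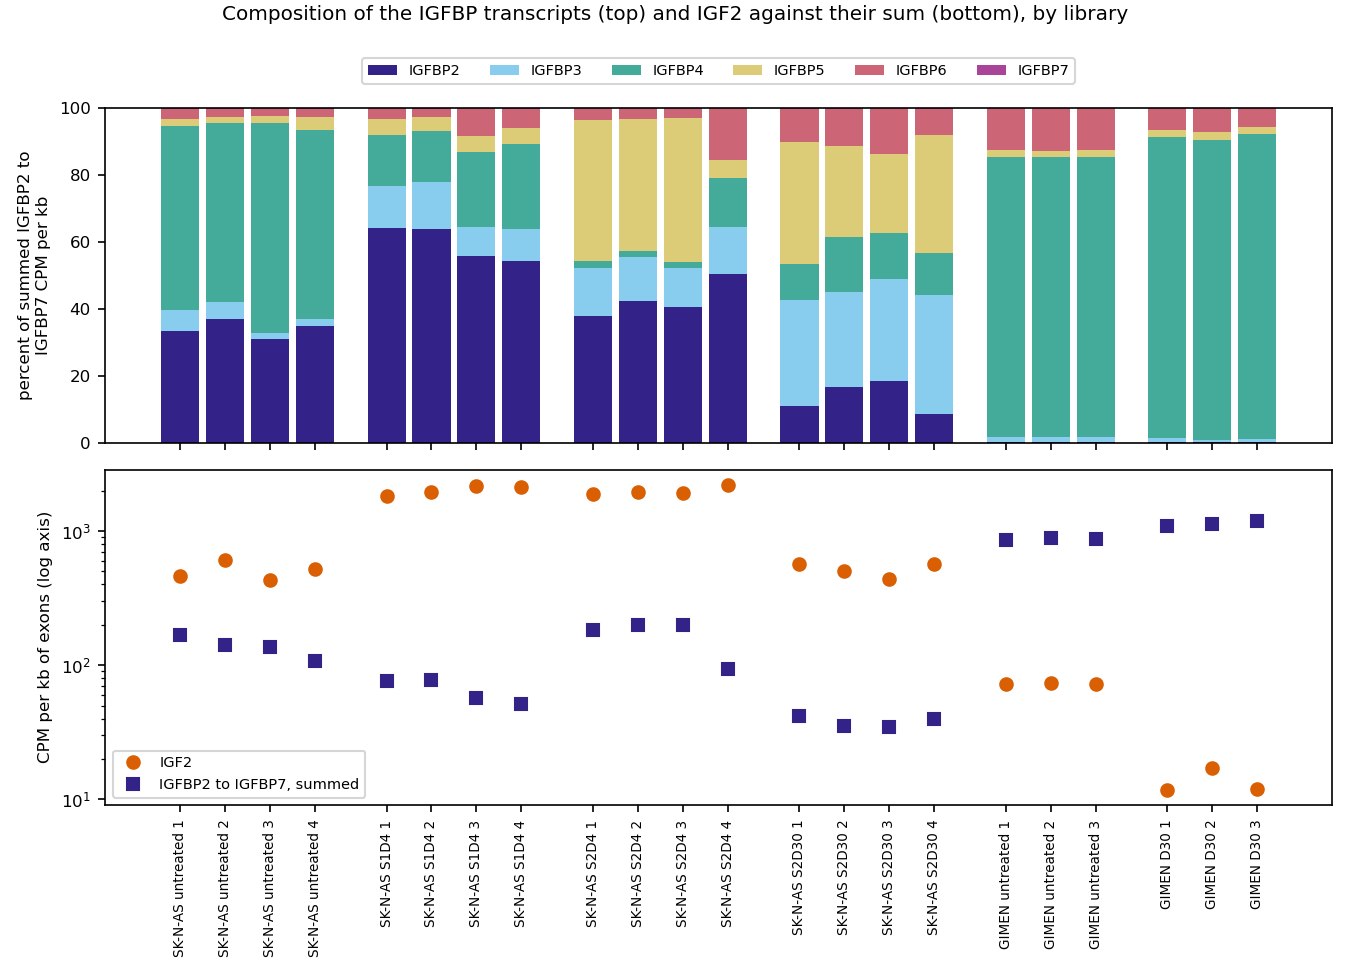
Share of each binding protein in the summed IGFBP2 to IGFBP7 level per kb of exon (top, percent) and IGF2 beside that sum (bottom, CPM per kb, log axis), for each of the 22 libraries. IGFBP4 gives 53.4 to 62.5% in untreated SK-N-AS and over 83% in each GIMEN library, and IGF2 lies above the sum in SK-N-AS and below it in GIMEN.

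The list of IGFBP proteases and their inhibitors has 8 genes, of which 7 were tested in SK-N-AS and 4 in GIMEN. In S2D30, 5 rose and 1 fell, where 33.8% of all genes were higher and 36.5% lower, with a median log2 change of 2.31 against -0.03 over all genes. Among the 5, PAPPA2 was at the edge of detection in S1D4 (0.17 CPM) and S2D4 (0.22 CPM), against 2.71 CPM in S2D30. A rise is no evidence where a gene passes the filter on low counts through its high group, so this count and median are only a description. In GIMEN all 4 tested were higher, where 35.5% of all genes were. ADAM28, among them, averaged 0.3 CPM in untreated GIMEN and 1.76 CPM in D30. It passed the filter on low counts through the treated group alone, so its rise is no evidence and no median is given for GIMEN. In S2D4, 5 rose, where 30.9% of all genes were higher, with a median of 1.62 against -0.02. STC1, a stanniocalcin that inhibits PAPPA, made the largest change: it was at 3.68, 4.33, 1.53 and 2.47 CPM in untreated SK-N-AS. S1D4 libraries held 39.4 to 65.1 CPM, S2D4 libraries 1355 to 3244 CPM (replicate 4 the lowest) and S2D30 libraries 2417 to 3114 CPM. The log2 increases were 4.08 (SE 0.32, adjusted p 1.16e-07), 9.76 (SE 0.39, adjusted p 6.16e-12) and 9.81 (SE 0.39, adjusted p 2.1e-12). In GIMEN it rose from 83.7 to 90.9 CPM to 2365 to 3116 CPM, by 4.94 (SE 0.11, adjusted p 1.82e-11).

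PAPPA, the protease that frees IGFs from IGFBP4, rose in SK-N-AS from 1.91 to 4.68 CPM to 10.8 to 16.9 CPM in S2D30, by 1.99 (log2, SE 0.33, adjusted p 5.15e-05). In GIMEN it rose from 114 to 123 CPM to 272 to 315 CPM, by 1.26 (SE 0.07, adjusted p 2.64e-08). The 30-day changes differed by 0.71 (SE 0.25, adjusted p 0.0258). STC2, the other stanniocalcin, was a SK-N-AS transcript that rose by 3.06 in S2D30 (SE 0.17, adjusted p 7.44e-11). It had at most 0.06 CPM in GIMEN. ADAM12, another IGFBP protease, rose by 1.71 in S2D4 (SE 0.27, adjusted p 3.24e-05) and was below untreated in S2D30 (-0.68, SE 0.27, adjusted p 0.0317).

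Of the 6 tested relatives that carry an IGFBP-like domain, 3 rose and 2 fell in S2D30 (33.8% and 36.5% of all genes), with a median of 0.45 against -0.03 over all genes. In GIMEN 4 of 5 fell (36% of all genes), with a median of -2.64 against 0.02. CYR61, a matrix protein of the CCN family, rose in S2D30 by 1.46 (log2, SE 0.33, adjusted p 0.000925) and fell in GIMEN (-2.64, SE 0.08, adjusted p 2.74e-10), and the changes differed by 4.07 (SE 0.50, adjusted p 4.53e-06). CTGF, of the same family, rose in S2D30 (2.88, adjusted p 8.15e-05) and fell in GIMEN (-3.67, adjusted p 3.32e-10). NOV went from 0.31 to 0.62 CPM in untreated SK-N-AS to 107 to 149 CPM in S2D30 and was at 0 in GIMEN. KAZALD1, another relative, fell in all 4 treated groups, from -0.45 in S1D4 (adjusted p 0.014) to -1.28 in S2D30 (adjusted p 3.25e-07). IGFBPL1, expressed in developing neurons, fell in S2D4 (-3.05, adjusted p 1.02e-06) and S2D30 (-4.91, adjusted p 8.58e-09).

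Of 29 adaptor, PI3-kinase and AKT genes tested downstream, 13 rose and 11 fell in S2D30, near the 33.8% and 36.5% of all genes, with a median of 0.12 against -0.03. In GIMEN 14 rose and 10 fell, where 35.5% and 36% of all genes did, with a median of 0.27 against 0.02. IRS2, an adaptor whose gene is repressed by insulin signalling, rose in all 4 treated groups: by 2.08 (log2, SE 0.18, adjusted p 2.63e-07), 3.86 (SE 0.19, adjusted p 5.41e-11) and 3.14 (SE 0.18, adjusted p 1.6e-10) along the SK-N-AS series and by 3.28 (SE 0.07, adjusted p 1.04e-11) in GIMEN. Untreated SK-N-AS had 25.7 to 47.3 CPM and S2D4 434 to 666 CPM. GIMEN rose from 41.5 to 45.4 CPM to 411 to 447 CPM. The 30-day changes in the lines differed by -0.15 (SE 0.19, adjusted p 0.545).

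IRS1, its close relative, went in opposite directions. In SK-N-AS it rose from 6.49 to 10.6 CPM to 53.9 to 80.9 CPM in S2D30, by 3.08 (log2, SE 0.20, adjusted p 6.48e-10). GIMEN went down from a range of 281 to 295 CPM, reaching 120 to 136 CPM (-1.18, SE 0.06, adjusted p 2.35e-08). The difference of these changes was 4.24 (SE 0.20, adjusted p 7.28e-11). PIK3R3, a regulatory subunit of PI3-kinase, fell in all 4 treated groups, from -1.94 in S1D4 (log2, adjusted p 4.3e-08) to -3.70 in GIMEN (adjusted p 3.3e-09).

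**Figure D4:**
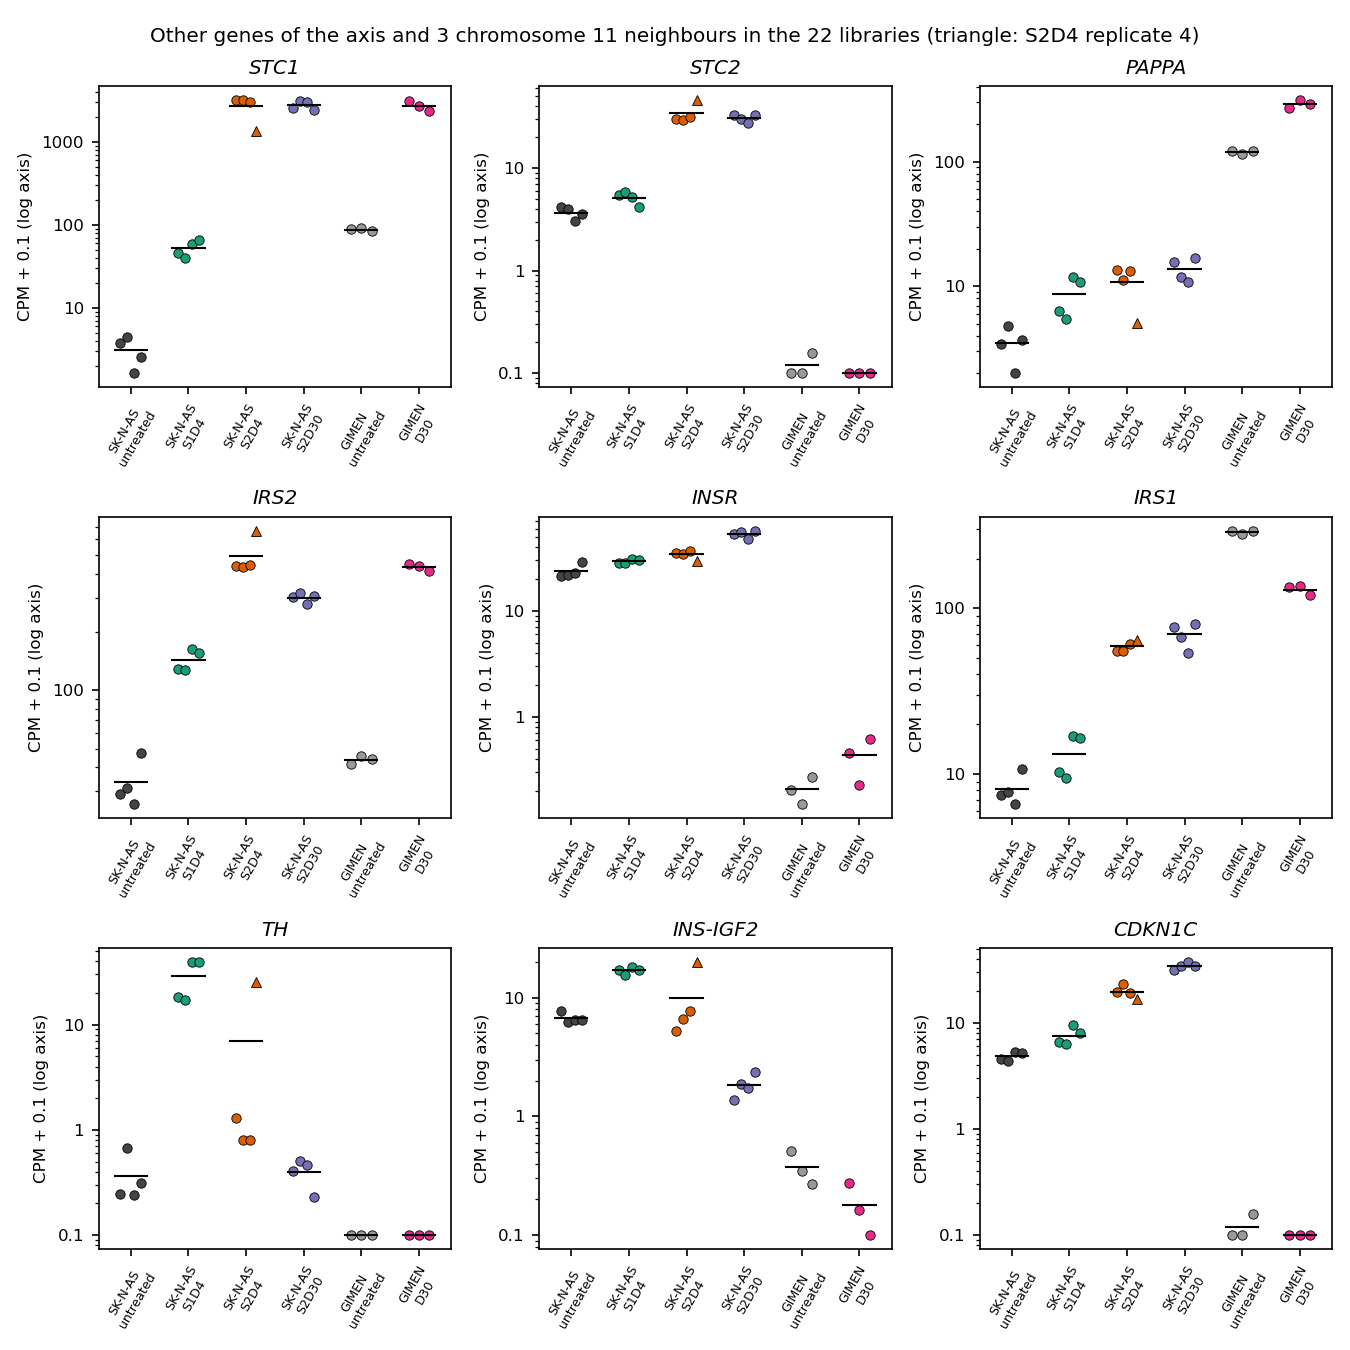
CPM + 0.1 (log axis) of STC1, STC2, PAPPA, IRS2, INSR, IRS1 and of the chromosome 11 genes TH, INS-IGF2 and CDKN1C in the 22 libraries, by group (bar: mean; triangle: S2D4 replicate 4). STC1 reaches 1355 to 3244 CPM in all S2D4, S2D30 and GIMEN D30 libraries, and IRS1 is higher in S2D30 but lower in GIMEN D30 than in untreated cells.

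Genes that bind the IGF2 transcript or act on its locus moved in both directions. IGF2BP1, an oncofetal RNA-binding protein, was lower in S2D30 (log2 fold change -2.41, SE 0.30, adjusted p 1.79e-06) and in GIMEN (-1.49, SE 0.07, adjusted p 4.41e-09), and was not called in S1D4 (-0.45, adjusted p 0.207) or S2D4 (-0.40, adjusted p 0.212). Without S2D4 replicate 4 the S2D4 value was called (-0.76, adjusted p 0.00897). IGF2BP2, a relative linked to HMGA2, rose by 1.01 in S2D4 (SE 0.14, adjusted p 6.87e-06) and 1.13 in S2D30 (SE 0.14, adjusted p 1.38e-06). HMGA2, a chromatin protein of fetal cells, rose from 25.8 to 53.8 CPM to 207 to 525 CPM in S2D4, with replicate 4 the lowest, by 3.39 (SE 0.31, adjusted p 7.54e-08). GIMEN libraries held 1358 to 1393 CPM before and 538 to 887 CPM after treatment, a fall (-1.02, SE 0.14, adjusted p 4.59e-05). IGF2BP3 was lower in S2D30 (-0.78, adjusted p 0.000447) and GIMEN (-0.79, adjusted p 5.97e-05). PLAG1, a transcription factor known to drive IGF2 promoters, was at 0.22 to 0.43 CPM in untreated SK-N-AS and at 3.4 to 4.56 CPM in S2D30. That difference of 3.72 is described without a test, because PLAG1 passed the filter on low counts through second-stage libraries alone. In GIMEN PLAG1 rose (0.81, adjusted p 3.17e-06). WT1, a repressor of IGF2 in kidney, fell in S2D4 (-0.82, adjusted p 9.48e-05) and S2D30 (-1.58, adjusted p 5.28e-08). TRIM28, which keeps imprints, was lower in S1D4 (-0.51, adjusted p 0.000153), S2D30 (-0.44, adjusted p 0.000159) and GIMEN (-0.77, adjusted p 4.66e-07). LIN28B was tested in GIMEN only (-1.61, adjusted p 6.54e-05). Of the 12 genes of this list tested in each line, 3 rose and 1 fell in S2D4 (30.9% and 32.2% of all genes), 4 rose and 6 fell in S2D30 (33.8% and 36.5%), and 4 rose and 6 fell in GIMEN (35.5% and 36%). The genes that rose include PLAG1 in S2D30 and CTCFL in GIMEN (0.27 CPM untreated, 0.92 CPM in D30). Both passed the filter on low counts through treated libraries alone, so their rise is no evidence.

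The neighbours of IGF2 on chromosome 11 were also read. Next to IGF2 lie INS-IGF2, INS and then TH, which encodes the rate-limiting enzyme of catecholamine synthesis. TH was at 0.14 to 0.57 CPM in untreated SK-N-AS and at 17.2 to 39.5 CPM in S1D4, a rise of 6.77 (log2, SE 1.12, adjusted p 0.000168). In S2D4 it was at 0.71 to 1.21 CPM in 3 libraries and at 25 CPM in replicate 4, and the value of 4.75 (adjusted p 0.00129) became 1.75 (adjusted p 0.0121) without that library. Of the INS-IGF2 exon bases, 100% are shared on the same strand with IGF2 or INS, so its reads may be those of IGF2. Its S1D4 difference of 1.32 (log2, SE 0.31) is therefore described without a test. INS-IGF2 was lower in S2D30 (-1.97, SE 0.34, adjusted p 7.17e-05), where IGF2 was not called against untreated cells. It went from 0.54 to -0.08 in S2D4 without replicate 4, and neither was called.

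CDKN1C, an imprinted growth inhibitor farther along the same cluster, rose at each stage in SK-N-AS, from at most 5.25 CPM in untreated libraries to at least 31.5 CPM in S2D30 (2.83, SE 0.14, adjusted p 3.62e-11). PHLDA2, an imprinted gene that restrains placental growth, rose by 5.20 in S2D4 (SE 0.33, adjusted p 1.28e-09) and 5.08 in S2D30 (SE 0.33, adjusted p 7.09e-10). In GIMEN, PHLDA2 was not called (-0.05, SE 0.14, adjusted p 0.743). CTSD, which encodes a lysosomal protease carried by IGF2R, rose in all 4 treated groups, up to 3.13 in S2D30 (SE 0.19, adjusted p 2.66e-10). NAP1L4, a histone chaperone gene, fell in S1D4 (-0.54, adjusted p 8.57e-05), S2D4 (-0.66, adjusted p 3.3e-06) and GIMEN (-0.66, adjusted p 7.97e-07), CARS fell in S2D30 (-0.44, adjusted p 0.00177), and MRPL23 rose in S1D4 (0.54, adjusted p 0.00531) and fell in GIMEN (-1.05, adjusted p 2.62e-07). Over the 15 neighbours tested, 10 rose and 1 fell in S1D4, where 17.6% of all genes were higher and 22.4% lower. The median was 0.65 against -0.01 over all genes. The 10 include INS-IGF2, whose reads may be those of IGF2. In S2D30, 6 rose and 4 fell, near the 33.8% and 36.5% of all genes.

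A list of genes elsewhere taken as imprinted, DCN among them, was also read, with no measure of imprinting in these cells. Of 13 tested in SK-N-AS, 9 fell and 3 rose in S2D30, where 36.5% of all genes were lower and 33.8% higher. Their median was -0.93 against -0.03 over all genes. Of 8 tested in GIMEN, 4 fell and 2 rose, where 36% of all genes were lower and 35.5% higher. MEST, an imprinted gene of fetal mesoderm, fell in S2D30 (log2 fold change -6.95, SE 0.46, adjusted p 8.28e-10) and in GIMEN (-3.70, SE 0.08, adjusted p 1.23e-11). DCN, the matrix protein decorin, was lower in all 4 treated groups, with -4.06 in S2D30 (adjusted p 2.87e-08) and -5.13 in GIMEN (adjusted p 2.26e-08). SNRPN fell in S1D4 (-0.39, adjusted p 0.00562) and S2D4 (-0.77, adjusted p 4.91e-06) and rose in S2D30 (0.32, adjusted p 0.00955) and GIMEN (1.15, adjusted p 9.85e-07), GNAS was higher in S2D4 (0.63, adjusted p 2.79e-05) and lower in S2D30 (-1.23, adjusted p 7.81e-09), and PLAGL1 fell in S2D30 (-0.93, adjusted p 0.0095). DLK1, an imprinted Notch-like protein of immature neuroblasts, was at 9 to 46.2 CPM in untreated cells and at 0.05 to 0.18 CPM in S2D30. Its untreated and S1D4 libraries showed the split of IGFBP3: 46.2 and 36.9 CPM in untreated replicates 1 and 2, and 9.3 and 9 CPM in 3 and 4.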

How the data were processed

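The values are raw gene counts deposited by the authors without normalization, checked as whole numbers with unequal totals. Total RNA was treated with DNase and sequenced as paired ends on an Illumina HiSeq X, per the labels' protocols. The aligner, counting tool, build, annotation and use of strand are not given in the sources used here. Members and gene lists were chosen with earlier results of these data known.

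Counts were tested with edgeR 4.0.16 in R 4.3.3 (TMM, filterByExpr with a minimum count of 10 and a minimum total of 15, quasi-likelihood F-test). One fit held the 16 SK-N-AS libraries (15810 genes), another the 6 GIMEN libraries (13517 genes), another the 14 untreated and 30-day libraries (16246 genes) and another the 7 untreated libraries (15101 genes). The SE is the absolute log2 fold change divided by the root of F. Log2 CPM used a prior count of 2. Exon lengths came from GENCODE v29. DESeq2 1.42.0 was an alternative. The test was checked on simulated counts. Members were all named. Of the other lists, genes fixed by name were named, and the called genes with the largest rise and fall at a mean of at least 10 CPM. The genes most like a member in pattern were also named, of which 1 is not reported here. Replicate numbers matched in part between S1D4 and untreated cells, and the main test does not pair them. The labels name no molecular identifiers, so reads may not be independent molecules.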

Additional observations from a re-analysis of the deposited data

Results flagged for a closer look

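Among the groups of 4 libraries, 36 combinations of gene and group were checked for a library far from the other 3, and chance alone flags about 1 in 20. There were 5, and 4 came from S2D4 replicate 4. That library had 17000 CPM of IGF2 against 14500 to 14900 CPM in the other 3, 30.5 CPM of IGFBP4 against 7.86 to 8.84, 33.3 CPM of IGFBP5 against 493 to 548, and 19.5 CPM of IGFBP6 against 8.42 to 9.01. The fifth was untreated SK-N-AS replicate 4, with 214 CPM of IGF1R against 147 to 156 CPM.

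The 30-day change differed between SK-N-AS and GIMEN, by the interaction term of edgeR's quasi-likelihood test, for 6 genes (log2, SK-N-AS minus GIMEN). The difference was 2.42 for IGF2 (adjusted p 8.05e-08), -4.42 for IGFBP2 (adjusted p 2.61e-09) and -4.49 for IGFBP4 (adjusted p 3.34e-11). It was 1.62 for IGFBP3 (adjusted p 0.0153), 1.31 for IGFBP5 (adjusted p 0.00034) and 0.677 for IGFBP6 (adjusted p 0.0418), a call lost in 11 of 14 fits that left out 1 library (adjusted p up to 0.0923) and in 1 model of all 22 libraries (adjusted p 0.146). Of all 16246 genes tested, 49.7% were called in this comparison.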

How the results depend on the processing

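Same-numbered S1D4 and untreated libraries correlated at 0.497, 0.423, 0.00369 and 0.411 in their deviations from the group means. The other comparisons gave -0.158 to 0.321. Replicate numbers thus carried some shared structure in S1D4 and untreated cells, which the main test leaves out. In S1D4 and untreated cells, 2 of 4 pairs were each best matched by their own number. With the replicate block, 6451 genes were called in S1D4, 10057 in S2D4 and 11205 in S2D30 against untreated cells and 9421 in GIMEN, each within 1.5 times the value without it, IGF1R in S2D4 was not called (adjusted p 0.0502), and DLK1 took the opposite sign in S1D4 (0.0704) and S2D4 (0.14).

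With calls limited to log2 changes of 1 or more in size there were 1942 genes in S1D4, 4577 in S2D4, 5845 in S2D30 and 3337 in GIMEN against untreated cells, 3425 from S1D4 to S2D4, 3109 from S2D4 to S2D30, 4235 for the difference of the lines and 6393 between the untreated lines. Among members it left 0 higher in S1D4, 4 higher in S2D4, 3 higher and 0 lower from S1D4 to S2D4, 0 higher from S2D4 to S2D30, and 2 higher and 1 lower in GIMEN. The genes tested were the 15810 of SK-N-AS and 13517 of GIMEN. Shares of all genes by direction are not given at this limit, so the member counts are only a description.

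IGF2 in S2D30 against untreated cells took the opposite sign with DESeq2 size factors (0.031), TMM without the 50 highest genes (0.018), a filter at a mean of 10 counts (0.00193), unfiltered genes (0.014), the groups compared alone (0.0155) and DESeq2's own test (0.0265), and was not called in any of them. Upper-quartile factors ended the calls of IGF1R and IGFBP2 in S2D4 (adjusted p 0.0987 and 0.0866). A term for replicates 3 and 4 gave 2 members higher in S1D4, ended the call of IGFBP2 in S2D4 (adjusted p 0.275), and gave 0.14 for DLK1 in S1D4 and, in S2D4, 0.101 for PLAGL1, -0.000245 for CARS and 0.025 for MRPL23. With the groups compared alone, 0 members were lower from S1D4 to S2D4. With all 22 libraries in 1 model, 2 members were higher in the difference of the lines, and IGFBP5 and IGFBP6 were no longer called.

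Leaving out 1 library at a time gave 0 to 1 members higher in S1D4, 0 to 1 lower from S1D4 to S2D4, and 1 to 2 higher from S2D4 to S2D30. Genes called in either direction numbered 5405 to 6872, 8050 to 9369 and 7311 to 8644 in these comparisons. Signs changed for these values: in S1D4, IGF1R (-0.105 to 0.0833), IGFBP6 (-0.542 to 0.0571), IGF2BP2 (-0.00204 to 0.191), DLK1 (-0.329 to 0.452) and IGFBPL1 (-0.613 to 0.0333). In S2D4 they were INS-IGF2 (-0.0795 to 0.755), PLAGL1 (-0.342 to 0.0521) and DLK1 (-0.564 to 0.217), and in S2D30 IGF2 (-0.0804 to 0.0919) and TH (-0.0254 to 0.759). The others were IGF2 from S1D4 to S2D4 (-0.0824 to 0.00419), IGFBP4 from S2D4 to S2D30 (-0.539 to 0.406, the highest without S2D4 replicate 4) and PHLDA2 in GIMEN (-0.155 to 0.13). Of 597 member values from leaving out a library, 552 kept their direction and side of the threshold, as did 627 of 664 from the other alternatives. Both totals include IGFBP7 and the values of IGF2 in comparisons with S1D4. The latter are described without a test, so the totals lend no support to them. Causes were not tested. Low counts limit IGFBP7, IGF1 and, in GIMEN, INSR.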
